A study of Mus musculus with 10 samples.

Results

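Frame-shifting microexons are very short exons whose length is not a multiple of 3. Where such an exon lies within a coding sequence, transcripts with and without it are read in different frames beyond it. They were taken from a comparison of microexons between untreated and cycloheximide-treated mouse neurons, as every cassette exon whose length, from the exon's start and end in the table, does not divide by 3. There were 1046 of them among 2428 cassette microexons, from 1 to 29 nt long and in 916 genes. The other 1382 have lengths that divide by 3 and are called frame-keeping. Membership rests on length alone. Of the members, 33 lie in an annotated 5′ UTR, 55 only in noncoding transcripts, and 465 are not annotated, so no shift of a frame is shown for these. Of the 1046, 9 were listed under 2 genes and were counted once. In 98 genes there were at least 2 members.

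Inclusion is given as percent spliced in (PSI), the share of transcripts that hold the exon. The neurons were glutamatergic cells differentiated in culture from mouse embryonic stem cells and taken at day 7 in vitro, either with no drug (n = 2) or after 12 h in 100 uM cycloheximide (n = 2). The authors' comparison holds 1 PSI per condition with the replicates combined, so the neuron values have no replicate error, their read depth is unknown and no test over samples could be run. Differences in neurons are therefore given as levels and counts, in percentage points. The second experiment used N2A, a mouse neuroblastoma line, transfected for 72 h with siRNA pools at 40 nM, either without a target (siNT, n = 3) or aimed at Qk (siQk, n = 3), with 1 PSI and its reads per sample. All samples are labelled biological replicates and no genotype other than the cell source is given. The neuron values used here do not include gene expression, so the neuronal label was not checked against marker genes. All positions are on mm10.

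Most known neuronal microexons keep the reading frame and add a few amino acids to a protein surface. A microexon that shifts the frame usually brings a stop codon into frame soon after the splice junction, on either the included or the skipped form. Transcripts whose stop lies well before the last exon junction are degraded by nonsense-mediated decay (NMD), which needs translation. Cycloheximide blocks translation, and with it this decay. The comparison gives the share of the 2 forms of each exon with and without the drug. Whether this decay or another effect of the drug lies behind a difference was not tested.

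Exon and flanking sequences are shown for 15 members on which the results turn, read 5′ to 3′ on the transcript's strand from GENCODE M21 transcripts of the same assembly. Capitals mark the microexon and lower case the 12 nt on either side in a spliced transcript. The first 4 lie in genes in which the annotation places the exon in an NMD or a noncoding transcript, and inclusion puts a stop in frame. They are in Srrm4 (chr5:116454673-116454688, minus strand), Antxr1 (chr6:87270755-87270780, minus strand), Nktr (chr9:121738388-121738415, plus strand) and Pla2g6 (chr15:79303574-79303602, minus strand). In Antxr1 the stop is the tag 6 nt into the exon itself.
Srrm4: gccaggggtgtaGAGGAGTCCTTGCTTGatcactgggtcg
Antxr1: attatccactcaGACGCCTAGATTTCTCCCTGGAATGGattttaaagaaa
Nktr: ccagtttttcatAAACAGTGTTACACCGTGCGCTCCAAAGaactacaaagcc
Pla2g6: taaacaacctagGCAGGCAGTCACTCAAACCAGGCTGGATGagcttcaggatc

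The next 5 lie inside the coding sequence, and leaving the exon out puts a stop in frame. They are in Phf21a (chr2:92351609-92351631, plus strand), Phf21b (chr15:84793896-84793918, minus strand), Srpk2 (chr5:23526790-23526815, minus strand), Unc13c (chr9:73812951-73812973, minus strand) and Prpf40b (chr15:99305408-99305433, plus strand). In Phf21a some annotated coding transcripts lack the exon, and putting it into these also gives an early stop. The exons of the paralogs Phf21a and Phf21b agree in 17 of 23 bases. In both, the new stop is the tga that starts 2 nt after the exon when the exon is skipped.
Phf21a: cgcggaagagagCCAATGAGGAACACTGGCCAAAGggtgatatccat
Phf21b: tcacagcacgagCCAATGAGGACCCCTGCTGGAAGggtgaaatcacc
Srpk2: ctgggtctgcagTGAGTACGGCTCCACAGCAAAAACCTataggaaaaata
Unc13c: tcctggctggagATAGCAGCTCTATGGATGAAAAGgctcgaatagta
Prpf40b: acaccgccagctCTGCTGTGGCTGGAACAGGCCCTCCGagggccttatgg

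The last 6 are the 20 nt exon shared by the genes of the calcium channel beta subunits, shown to compare paralogs, and the exons of Strada and Col4a1, which changed in N2A cells. They are in Cacnb1 (chr11:98010627-98010646, minus strand), Cacnb2 (chr2:14968218-14968237, plus strand), Cacnb3 (chr15:98640959-98640978, plus strand), Cacnb4 (chr2:52465894-52465913, minus strand), Strada (chr11:106180955-106180983, minus strand) and Col4a1 (chr8:11204536-11204552, minus strand).
Cacnb1: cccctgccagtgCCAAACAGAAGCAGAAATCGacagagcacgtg
Cacnb2: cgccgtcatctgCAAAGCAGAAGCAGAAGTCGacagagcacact
Cacnb3: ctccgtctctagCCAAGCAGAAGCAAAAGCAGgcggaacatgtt
Cacnb4: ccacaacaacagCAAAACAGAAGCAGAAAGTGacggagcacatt
Strada: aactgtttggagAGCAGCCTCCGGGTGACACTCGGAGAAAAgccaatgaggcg
Col4a1: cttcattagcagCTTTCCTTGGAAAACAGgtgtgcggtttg

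In untreated neurons the members were mostly at the ends of the scale. Of the 1046, 607 had a PSI under 10%, 310 a PSI over 90%, and 129 lay between. All 310 members over 90% have exact ends in the annotation, whereas 420 of the 465 members that the annotation does not hold were under 10%. Exons of 4 nt made up 204 of the members, and 200 of these are not annotated. Their median PSI without drug was 1.87%. Members of at least 22 nt, 444 in number, had a median of 91.6%. The 152 members of 16 to 21 nt had a median of 5.02%, the 91 of 10 to 15 nt 1.91% and the 352 of 3 to 9 nt 1.97%.

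Members in 1 gene can share the reads that skip them. The gene with the most members was Scfd2, which encodes a protein of the Sec1 family, with 10 exons of 4 to 10 nt that are not annotated. In 7 of them the PSI was 3.84% to 4.02% without drug and 2.35% to 2.57% with cycloheximide. The other 3 were at 1.61% to 2.68% and 1.85% to 3.04%. Such members are not independent measurements.

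With cycloheximide most members stayed where they were. In 614 members (58.7%) the PSI differed by less than 1 point between conditions, and the median difference, cycloheximide minus untreated, was -0.0087 points. Over 90% in both conditions were 290 members, and under 10% in both 574. Inclusion was at least 10 points higher with cycloheximide in 41 members (3.92%) and at least 10 points lower in 46 (4.40%). Over all 2428 cassette microexons of the table the 10-point shares were 3.71% higher and 9.84% lower, and the median difference was -0.06 points. The frame-keeping microexons were higher in 49 and lower in 193 of 1382, with a median of -0.17 points. The share of members that were higher was thus near that of the whole table, and the share that were lower was below it. At 5 points 74 members were higher and 77 lower, against 7.41% and 14.8% of the whole table, and at 20 points 20 were higher and 30 lower, against 1.73% and 5.52%.

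**Figure D1:**
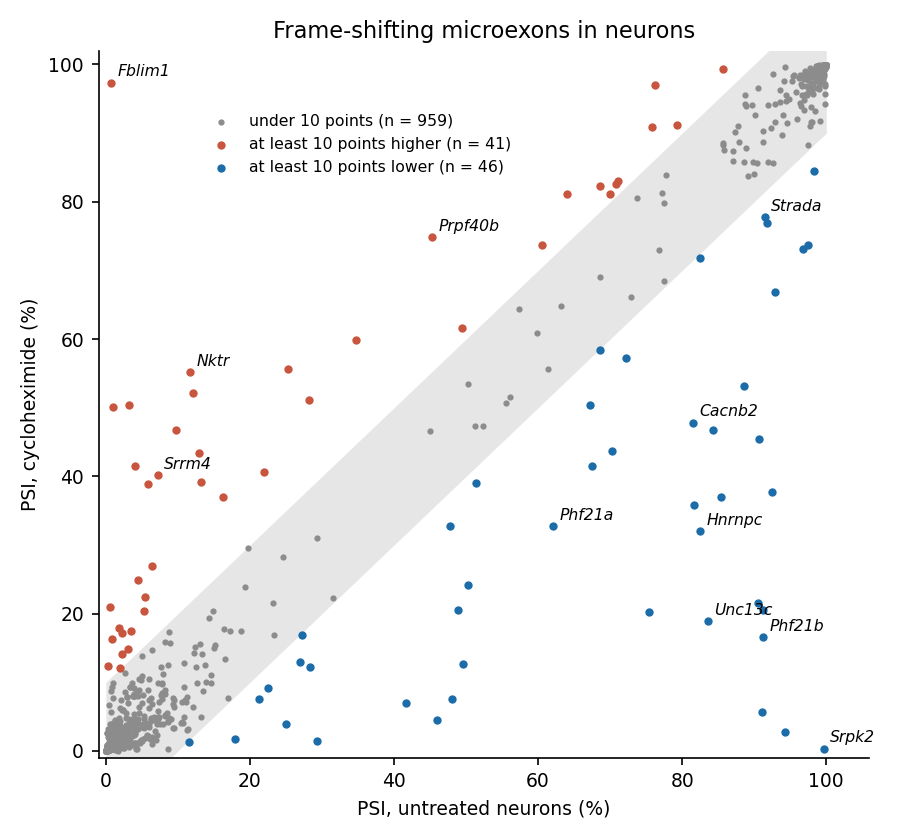
PSI of each of the 1046 frame-shifting microexons in untreated neurons (x axis, %) and after cycloheximide (y axis, %). The grey band holds the 959 members that differ by under 10 points, red points the 41 at least 10 points higher and blue points the 46 at least 10 points lower.

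The starting level set how far a member could move, since an exon under 10% cannot lose 10 points. Among the 607 members under 10%, 20 (3.29%) were at least 10 points higher and the median difference was -0.011 points. Of all 1132 microexons under 10%, 2.47% were higher. Among the 310 over 90%, 14 (4.52%) were at least 10 points lower and the median was 0.0025 points, against 6.46% lower of all 790. Of the 68 members between 10% and 50%, 11 (16.2%) were higher and 15 (22.1%) lower by at least 10 points, with a median of -3.31. The shares over all 230 microexons of that class were 13.5% and 31.3%. Of the 61 between 50% and 90%, 10 (16.4%) were higher and 17 (27.9%) lower, with a median of -1.01, against 11.2% and 42.0% of all 276.

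Between 10% and 90% the direction was more even in the members than in frame-keeping microexons. There 21 of 129 members (16.3%) were at least 10 points higher and 32 (24.8%) at least 10 points lower. Among 377 frame-keeping microexons of that range, 41 (10.9%) were higher and 156 (41.4%) lower, and their median difference was -6.48 points against -2.69 in the members. The untreated value is one of the 2 values in each difference, so class and difference are not independent. With exons classed by the mean of both conditions, 22 of 78 members from 10% to 50% were higher and 19 lower, against 18 and 83 of 172 frame-keeping microexons. From 50% to 90% they were 11 and 24 of 67 members, against 26 and 103 of 227.

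**Figure D2:**
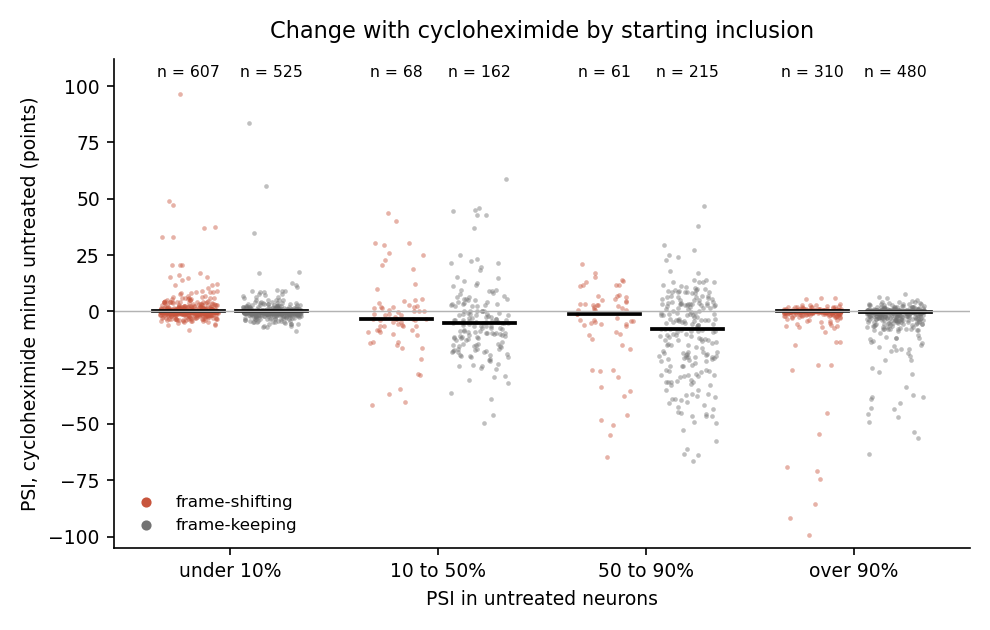
Difference of PSI, cycloheximide minus untreated (y axis, percentage points), by the PSI in untreated neurons (x axis), for frame-shifting (red) and frame-keeping (grey) microexons. Each point is an exon and the black bars are medians, which in the 2 middle classes are -3.31 and -1.01 in the frame-shifting and -5.28 and -8.04 in the frame-keeping exons.

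By length, the members of at least 22 nt were higher in 17 (3.83%) and lower in 30 (6.76%) of 444, against 3.34% and 10.6% of all microexons of that length. Those of 16 to 21 nt were higher in 8 (5.26%) and lower in 7 (4.61%) of 152, against 5.15% and 13.7%. Those of 10 to 15 nt were higher in 3 (3.30%) and lower in 4 (4.40%) of 91, against 3.64% and 13.5%. Those of 3 to 9 nt were higher in 12 (3.41%) and lower in 5 (1.42%) of 352, against 3.38% and 5.54%. In each of these classes the share that were higher was near that of all microexons, and the share that were lower was below it. Of the 352 members of 3 to 9 nt, 302 were under 10% without drug, as were 260 of 388 frame-keeping microexons of that length. Whether the starting level accounts for the smaller share that were lower was not tested. Of the 7 members of 1 or 2 nt, a 2 nt exon of the septin gene Sept7 went from 34.7% to 59.9% and none was lower by 10 points. By the remainder of the length, members with 1 base over a multiple of 3 were higher in 24 (4.28%) and lower in 18 (3.21%) of 561, and those with 2 bases over were higher in 17 (3.51%) and lower in 28 (5.77%) of 485. Frame-keeping lengths were higher in 3.55% and lower in 13.97%.

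The effect on the reading frame was computed by taking the exon out of, or putting it into, the annotated coding transcripts. An early stop was counted where the first stop in frame ended more than 50 nt before the last exon junction. Leaving out the exon gave an early stop in 334 of 393 members (85.0%) that lie in coding transcripts, against 3 of 808 frame-keeping microexons (0.371%). Putting in the exon gave an early stop in 103 of 134 members (76.9%), against 9 of 522 (1.72%). The median distance from the junction to the stop was 35.5 nt on skipping, and 49.5 nt from the start of the exon on inclusion. For 590 members, most of them not annotated, neither could be computed.

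Members with annotated coding transcripts of both forms were classed apart, whatever their stops. These 71 had a median PSI of 8.52% without drug, and 36 were under 10%. Of the other members, 280 had an early stop on skipping. No annotated coding transcript used here lacks these exons, so the class is not independent of high inclusion. Of the 280, 238 had a PSI over 90% without drug and the median was 99.3%. With cycloheximide 5 of the 280 (1.79%) were at least 10 points higher and 9 (3.21%) at least 10 points lower, against 3.71% and 9.84% of the whole table. In the 238 over 90%, 5 (2.10%) were at least 10 points lower, against 6.46% of all microexons over 90%, and the median difference was 0.0045 points.

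Outside the class with coding transcripts of both forms, 48 members had an early stop on inclusion. None could be taken out of an annotated coding transcript, so this class is not independent of low inclusion. Of the 48, 35 were under 10% and the median was 3.85%. With cycloheximide 6 (12.5%) were at least 10 points higher and 5 (10.4%) at least 10 points lower, against 3.71% and 9.84% of the whole table. Frame-keeping microexons of that class were higher in 2 and lower in 1 of 6. The 6 higher members were in Nktr, Pla2g6, Antxr1, Srrm4, Sept7 and Col11a1, and the 5 lower in Cacnb2, Tex26, Car14, Stx2 and Nfkb1. The exons of Cacnb2 and Car14 also lie in the coding sequence of other annotated transcripts. For these, the effect of skipping could not be computed. Members found only in annotated NMD transcripts, 54 in number, were higher in 6 (11.1%) and lower in 3 (5.56%). Frame-keeping microexons of that annotation were higher in 3 (10.7%) and lower in 5 (17.9%) of 28, so the share that were higher was near the same. Members with coding transcripts of both forms, 71 in number, were higher in 2 (2.82%) and lower in 9 (12.7%), against 4.64% and 26.4% of all 474 microexons of that class. In 57 members the exon could be only taken out or only put in, and this did not give an early stop in most transcripts. Of these, 3 (5.26%) were higher and 9 (15.8%) lower, against 3.49% and 9.95% of all 573.

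The 16 nt exon of Srrm4, which encodes a neuronal activator of microexon splicing, went from 7.26% untreated to 40.1% with cycloheximide. Its inclusion puts a stop in frame 39 nt from the start of the exon, and the annotation holds the exon only in an NMD transcript. The 28 nt exon of Nktr, which encodes a large cyclophilin with an arginine and serine rich tail, went from 11.7% to 55.2%. The 26 nt exon of Antxr1, which encodes a cell surface receptor that binds anthrax toxin, went from 5.80% to 38.9%. The 29 nt exon of Pla2g6, a phospholipase gene, went from 9.71% to 46.7%, and the 22 nt exon of Fam133b from 4.02% to 41.4%. These 5 exons share an annotation that keeps them out of protein-coding transcripts.

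The other large differences upward had no common annotation. The 16 nt exon of Fblim1, which encodes a filamin-binding protein, lies in the 5′ UTR and went from 0.738% to 97.3%. The 28 nt exon of the adhesion receptor gene Adgra2 went from 1.02% to 50.1%, and the 20 nt exon of Rad51ap1, a gene of homologous recombination, from 3.19% to 50.4%. A 17 nt exon of Ltbp1, which encodes a protein that holds latent TGF-beta in the matrix, went from 12.1% to 52.2%. A 4 nt exon of Fam161a was at 12.9% untreated and 43.4% with cycloheximide. The exons of Ltbp1 and Fam161a are not annotated. The 26 nt coding exon of Prpf40b, which encodes a factor of early spliceosome assembly, went from 45.3% to 74.9%. Skipping this exon makes a stop that spans the junction, the t before the exon and the ag after it. Of the remaining 29 members at least 10 points higher, 15 are not annotated.

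The largest differences downward reached nearly the whole scale. The 26 nt coding exon of Srpk2, a kinase of SR splicing proteins, went from 99.7% untreated to 0.337% with cycloheximide. The 29 nt 5′ UTR exon of Zbtb7b, a zinc finger transcription factor gene, went from 94.3% to 2.70%. The 25 nt exon of Frem1, a gene of the extracellular matrix, went from 91.1% to 5.70%. The 23 nt exon of Phf21b, which encodes a PHD finger protein, went from 91.2% to 16.6%. In Srpk2 and Phf21b, skipping truncates the protein 14 nt and 2 nt after the junction.

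The next differences downward lay in coding exons, a 5′ UTR exon and an exon that spans a start or stop codon, in genes of several functions. The 23 nt exon of Unc13c, which encodes a protein that primes synaptic vesicles for release, went from 83.5% to 18.9%. The 23 nt exon of Plch1, a phospholipase C gene, went from 90.6% to 21.5%, and the 23 nt exon of Trim72, a gene of membrane repair, from 91.2% to 20.5%. The 10 nt exon of Trim34b went from 75.3% to 20.3%. The 26 nt 5′ UTR exon of Hnrnpc, which encodes an abundant pre-mRNA binding protein, went from 82.5% to 32.0%. The 23 nt exon of Pfkfb3, a gene of glycolytic control, went from 85.3% to 37.0%. The 25 nt exon of Carmil1, which encodes a regulator of actin capping, went from 81.6% to 35.8%.

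One exon appeared in both directions. Catspere2 holds the same 25 nt exon at 2 places on chromosome 1 with identical sequence. The copy at chr1:178040309-178040333 went from 25.3% to 55.6% and the copy at chr1:178070529-178070553 from 92.4% to 37.8%. The 12 nt after the exon are also identical, while 1 of the 12 nt before it is the same. How reads were assigned to the copies was not tested, and both values are uncertain.

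**Figure D3:**
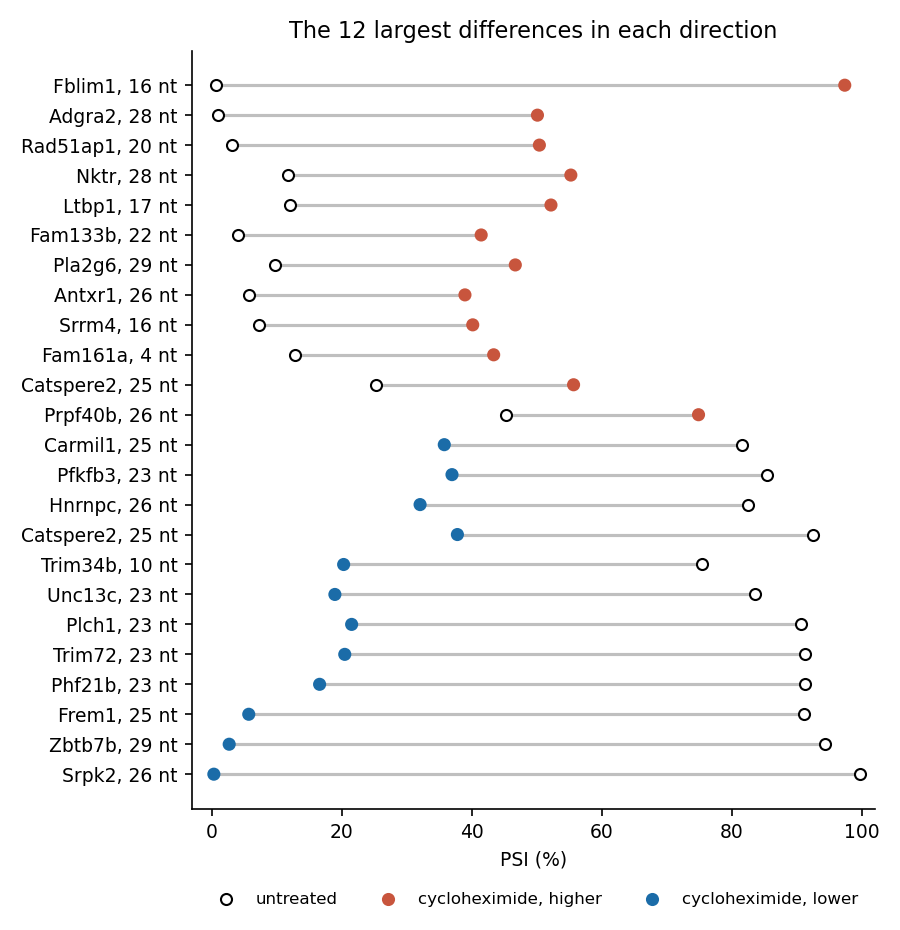
PSI (x axis, %) in untreated neurons (open points) and after cycloheximide (filled points) for the 12 members with the largest differences upward (red) and the 12 with the largest downward (blue). The downward group started between 75.3% and 99.7%, while 10 of the 12 upward exons started between 0.738% and 12.9%.

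How well these differences are supported was not the same for all. In the authors' deposited table the probability of a difference was 0.995 to 1 for the 12 largest downward and 0.581 to 1 for the 12 largest upward. In the authors' deposited table it was lowest among these for Adgra2 (0.581), Rad51ap1 (0.646) and Nktr (0.667). Over all members the authors' probability ran from 0.5 to 1, with a median of 0.6275. It went down to 0.539 among the 41 rises of 10 points and to 0.562 among the 46 falls. These probabilities were not used to call any exon.

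The exons at the median of each starting class show the usual case. The 28 nt coding exon of Erich2 went from 88.9% to 87.9%, and the 20 nt coding exon of Trim44 from 99.894% to 99.896%. A 4 nt exon of Rtn4rl2, which is not annotated and lies in a gene for a receptor of the Nogo family, went from 11.3% to 7.84%. An 11 nt exon of the kinesin gene Kif5a, not annotated either, went from 0.158% to 0.146%.

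Of 5 lists of genes, the list of splicing regulators and RNA-binding proteins held 17 members in 12 of its 84 genes. In it 2 exons were at least 10 points higher (Srrm4 and Prpf40b) and 1 lower (Hnrnpc), and the median difference was 0.008 points. Prpf40b also held coding members of 28 nt and 25 nt, at 99.5% to 99.9% in both conditions, and a 14 nt member without annotation, which changed from 4.65% to 1.30%. Srrm3, the paralog of Srrm4, had a 20 nt exon held only in an NMD transcript, which was at 5.09% untreated and 3.90% with cycloheximide.

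The list of synapse, adhesion and ion channel genes held 26 members in 18 of its 88 genes. None was at least 10 points higher and 1 was lower, the 20 nt exon of Cacnb2, which went from 81.5% to 47.8%. A 5 nt coding exon of Rims1, a gene of the presynaptic active zone, went from 72.9% to 66.2%, and a 1 nt coding exon of the same gene from 99.6% to 99.7%. The 28 nt exon of Dlg4, which encodes the postsynaptic scaffold PSD-95, was at 99.95% and 99.96%. The 23 nt exon of Unc13b went from 16.5% to 13.4%. The 4 members of Nrxn3, none of them annotated, included an 8 nt exon that went from 23.4% to 16.9%, and the other 3 stayed between 2.10% and 3.11%.

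The remaining lists held fewer members. The cytoskeleton and membrane traffic list held 13 members in 10 of its 88 genes and none differed by 10 points. Its largest difference was in a 25 nt coding exon of Sgip1, an endocytosis gene, which went from 99.8% to 94.3%, while a second 25 nt exon of Sgip1 stayed at 99.9%. The list of NMD and translation factors held 4 members in 3 of its 32 genes, with none past 10 points and a 28 nt coding exon of Casc3, a subunit of the exon junction complex, at 99.896% and 99.969%. The chromatin and transcription list held 11 members in 6 of its 57 genes, and 1 of them was lower by 10 points. That was the 23 nt exon of Phf21a, which encodes a histone reader in the LSD1 demethylase complex and went from 62.1% to 32.8%. The medians of the 5 lists ran from -0.27 to 0.10 points, against -0.06 over all cassette microexons.

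Some related genes held a matching member, as in the sequences of the Cacnb and Phf21 exons. Pairs were taken as exons of the same length, at least 10 nt, with at least 70% identity, in genes whose symbols share their first 3 letters, a rule chosen after the values were seen. There were 28 such pairs, made of 37 exons in 35 genes. Of the 37, 33 were over 90% without drug, while 293 of all 540 annotated members of at least 10 nt were. With cycloheximide 1 of the 37 was at least 10 points higher and 3 were lower. The shares were 3.71% and 9.84% over the whole table, and 4.13% and 6.88% over annotated members, so these counts are near them.

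The paralogs of 1 family did not always share a level or a difference. The 20 nt exons of Cacnb1, Cacnb3 and Cacnb4 were at 97.4%, 99.8% and 99.3% untreated, and at 88.2%, 99.7% and 99.05% with cycloheximide, while Cacnb2 was lower in both conditions. Their sequences agree in 14 to 17 of 20 bases. The Phf21a and Phf21b exons were both lower with cycloheximide, by different amounts. The 28 nt exons of the nonmuscle myosin genes Myh9 and Myh10 were at 97.6% and 99.9% untreated and at 96.3% and 99.9% with cycloheximide. The exon of their paralog Myh14 went from 64.1% to 81.1%.

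Other families were near full inclusion in both conditions, with Tnrc6a somewhat lower. The 25 nt exons of Ythdf1, Ythdf2 and Ythdf3, which encode readers of the m6A mark on RNA, were at 99.65%, 99.7% and 99.8% untreated and at 99.9% in each with cycloheximide. The 22 nt exons of Tnrc6b and Tnrc6c, which encode partners of Argonaute in silencing by microRNAs, were at 99.2% and 99.9% untreated and at 99.1% and 99.9% with cycloheximide. The exon of Tnrc6a went from 89.2% to 83.7%. The 17 nt exons of the corepressor genes Tle1, Tle3 and Tle4 lay between 99.3% and 99.7% in both conditions.

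**Figure D4:**
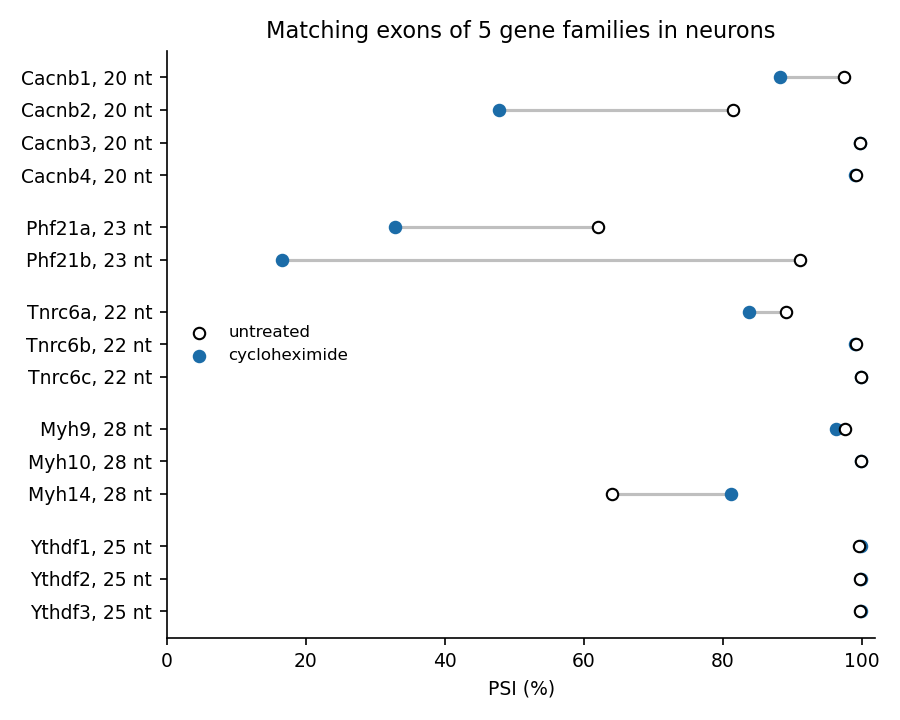
PSI (x axis, %) of matching exons in 5 gene families in untreated neurons (open points) and after cycloheximide (filled points). Of the 15 exons, 11 were over 90% untreated, and Cacnb2, Phf21a, Phf21b and Myh14 differed by more than 10 points between conditions.

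The N2A cells give values per sample for some of the same exons. There Qk, an RNA-binding regulator of splicing, was lowered in every siQk sample: its exon reads, as RPM of all exon-event reads, came to 90.8, 82.8 and 82.5 in the siNT samples and to 8.18, 12.3 and 13.01 in the siQk samples. By position 403 members were matched in the N2A table, and 273 of them had at least 10 reads in each of the 6 samples. Of the 273, 187 had a mean PSI over 98% and 31 under 2%, and the 55 between were tested with limma in a fit over all 12930 cassette exons. Total exon-event reads ran from 26595944 to 80481173 per sample.

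Knockdown of Qk raised 3 of the 55 members and lowered none (5.45% called, against 1.18% of all cassette exons tested, 0.75% upward and 0.425% downward). A call needed a limma adjusted p under 0.05 and a difference of at least 10 points. At an unadjusted limma p under 0.05 there were 10 members, all higher in siQk. Over all cassette exons tested, 1169 of 12930 (9.04%) were under it. Of the 55, 34 were higher and 21 lower in siQk, with a median difference of 0.9 points. Over all cassette exons tested the median was 0.04 points, and 50.6% were higher. Among 245 frame-keeping microexons tested, 22 were called, 20 of them upward. At an unadjusted limma p under 0.05 there were 85 of these, 73 of them upward, and 171 of the 245 were higher in siQk.

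The 29 nt exon of Strada, which encodes a pseudokinase that activates the kinase LKB1, had a PSI of 38.5%, 29.4% and 28.1% in siNT and 73.5%, 69.9% and 58.4% in siQk. The groups did not overlap, and the mean rose from 32.0% ± 5.69 to 67.3% ± 7.85 (SD, n = 3 each, limma adjusted p = 0.0106). Annotated coding transcripts hold both forms of this exon. In neurons it was at 91.5% untreated and 77.8% with cycloheximide.

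The 20 nt exon of Cacnb1 had a PSI of 73.2%, 84.0% and 81.5% in siNT and 100%, 100% and 97.6% in siQk. All siQk samples were above all siNT samples, and the mean rose from 79.6% ± 5.69 to 99.2% ± 1.38 (SD, n = 3 each, limma adjusted p = 0.0184). The reads behind each value numbered 41 to 129. In neurons this exon was at 97.4% untreated.

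The 17 nt exon of Col4a1, which encodes a chain of basement membrane collagen, had a PSI of 27.5%, 24.8% and 25.8% in siNT and 36.4%, 45.1% and 41.5% in siQk. The groups did not overlap, and the mean rose from 26.01% ± 1.37 to 41.0% ± 4.35 (SD, n = 3 each, limma adjusted p = 0.0473). The annotation holds this exon only in an NMD transcript, and its inclusion puts a stop in frame 46 nt from the start of the exon. In neurons it was at 0.959% untreated and 7.73% with cycloheximide. Each of these 3 calls was lost when some of the samples were left out: that of Strada without siNT 2 (adjusted p = 0.0753) or siNT 3 (0.0609), that of Cacnb1 without any 1 siNT sample (0.0894 to 0.122), and that of Col4a1 without any 1 siNT sample, siQk 2 or siQk 3 (0.114 to 0.236).

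Other members had similar differences that did not pass the limma test. The 25 nt exon of the Wnt effector gene Tcf7l2 had a PSI of 22.96%, 33.9% and 24.1% in siNT and 46.2%, 47.3% and 67.7% in siQk (adjusted p = 0.229). The 25 nt coding exon of Mfsd6, a transporter family gene, had 50.3%, 52.8% and 51.0% in siNT and 64.0%, 74.4% and 70.7% in siQk (adjusted p = 0.087). The 23 nt exon of Phf21a had 77.7%, 80.8% and 78.4% in siNT and 95.7%, 92.6% and 87.5% in siQk (adjusted p = 0.155). In none of these 3 did the groups overlap, but they were picked for their large differences, so this is not separate support. The mean of a 28 nt 5′ UTR exon of Snph, which encodes a protein that anchors mitochondria in axons, was 10.2% ± 2.80 in siNT and 22.5% ± 1.52 in siQk (SD, n = 3 each, limma adjusted p = 0.673, with 12 to 45 reads per sample). The mean of a 23 nt exon of Arhgap23 was 5.77% ± 1.59 and 13.8% ± 1.21 (SD, n = 3 each, limma adjusted p = 0.331).

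**Figure D5:**
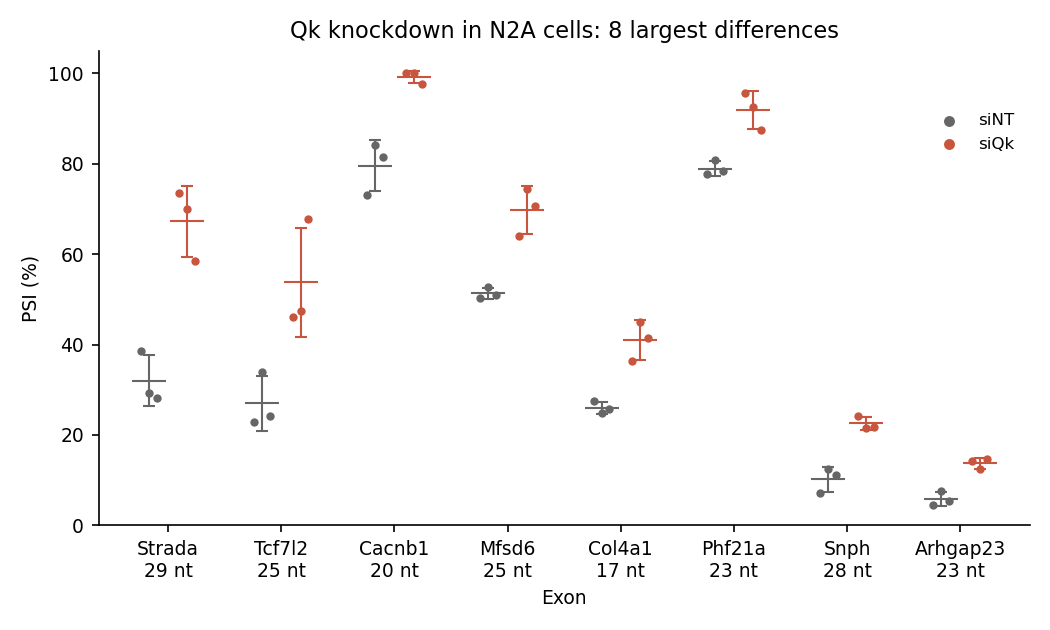
PSI per sample (y axis, %) in N2A cells with siNT (grey) and siQk (red) for the 8 tested members with the largest differences. Points are samples and bars are means with SD (n = 3 each). In all 8 the siQk samples lie above the siNT samples, but the exons were picked by their difference, so this is not separate support. Only the exons of Strada, Cacnb1 and Col4a1 were called.

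Most members that could be compared had a similar level in both kinds of cell. Of the 273 with reads, 220 (80.6%) differed by less than 10 points between the siNT mean and untreated neurons. For frame-keeping microexons with reads this was 312 of 519 (60.1%). Of the 273, 187 had a mean PSI over 98% and 31 under 2% in N2A, so most lay at the ends of the scale. In 6 the neurons were at least 50 points higher, among them Pfkfb3 (4.98% ± 1.38 in siNT, SD, n = 3), Arhgap23, Dclk2 and Strada. In 15 the siNT cells were at least 50 points higher. Among these were the 29 nt exon of Nop58, a gene of small nucleolar ribonucleoproteins, at 100% in each N2A sample and 0.25% in neurons, the 29 nt exon of the autophagy gene Becn1, at 98.5% ± 0.779 (SD, n = 3) and 0.067%, and the 26 nt exon of Prpf40b, at 100% in each N2A sample and 45.3%. The 2 tables differ in format and were made separately, so the cell type and the way of quantifying cannot be told apart. These exons were picked after their values were seen.

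The members that differed by 10 points with cycloheximide were spread over the N2A scale. Of the 87, 46 were matched in N2A cells and 27 had enough reads. In siNT, 14 of the 27 were over 90%, 5 under 10% and 8 between. The Srpk2 exon was at 98.6% ± 0.334 in siNT and 97.5% ± 1.91 in siQk, and the Phf21b exon at 99.9% ± 0.139 and 99.9% ± 0.11 (SD, n = 3 each). In untreated neurons they were at 99.7% and 91.2%. The Hnrnpc exon was at 39.7% ± 2.69 and 39.4% ± 5.76, and the Nktr exon at 10.3% ± 8.02 and 12.3% ± 8.72 (SD, n = 3 each). With Qk knocked down 3 of the 27 differed by 10 points or more, those of Strada, Mfsd6 and Phf21a. All 3 were higher in siQk and lower with cycloheximide in the neurons. Of the 27, 21 were lower with cycloheximide, and all 7 tested members past 10 points in N2A were higher in siQk.

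A separate table of neural microexons, from the same authors, holds 17 members. Of the 17, 4 carry the authors' class for exons repressed by Qk, those of Cacnb1, Col4a1, Mfsd6 and Phf21a. There the authors place an ACTAAY motif, the sequence that Qk binds, upstream of 4 of the 17, those of Cacnb1, Col4a1, Phf21b and Fsd1l, and none is noted for Mfsd6 and Phf21a. The motif is placed downstream of the exons of Arhgap23 and Ppfia2. Phf21b, Fsd1l, Arhgap23 and Ppfia2 carry the authors' classes for no change. That list was made from these N2A samples and is not independent of the values above.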

How the data were processed

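Polyadenylated RNA was sequenced from 6 N2A samples and 4 neuron samples, with stranded libraries of long inserts, per the labels' protocols. Of the neurons, the authors deposited a table in the format of Whippet in which replicates are combined, with PSI as a fraction for each condition and a score, the probability of a difference. The first PSI column was taken as untreated from the order in the table's name. Of the N2A cells, the authors deposited a table in the format of vast-tools with a PSI percent per sample and a quality text (another kind of value) that holds inclusion and exclusion reads, and a list of neural microexons with PSI as a fraction. A second, filtered neuron table was not used. The software was not given in the sources used here, and the build is mm10, per the submitters' processing notes.

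The neuron table held 2469 rows, 2442 of them cassette rows for 2428 exons. Length was end minus start, since starts count from 0. For an exon under 2 genes the row of a protein-coding gene was kept. Exons were matched to GENCODE M21 (GRCm38, the same assembly as mm10) by exact ends (581 of 1046). The frame was followed from the annotated start codon.

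In N2A, log2((inclusion + 0.5)/(exclusion + 0.5)) was compared with limma 3.58.1 (R 4.3.3; robust moderated test with a variance trend, two-sided) over cassette exons with at least 10 reads in each sample and a mean PSI from 2 to 98, with Benjamini-Hochberg adjustment. The script was tested on simulated data. PCR copies cannot be told from molecules, and within each group the spread of sample pairs was 1.87 to 3.44 times that of read sampling, and none was taken as a copy. Alternatives varied the threshold, the definition of length, filters, the scale and the samples.

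Named were the 12 largest differences each way, members of 5 gene lists past 10 points, the member at the median of each starting class, and in N2A the called members and the 8 largest differences; other names were chosen after their values were seen. Members and lists were chosen with earlier results of these data known. Python 3.11.15, pandas 2.3.3 and matplotlib 3.10.9 were used.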

Additional observations from a re-analysis of the deposited data

How the results depend on the processing

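The counts of members 10 points higher (41) and lower (46) were 74 and 77 at 5 points and 20 and 30 at 20 points. With length as end minus start plus 1, 1943 exons would count as frame-shifting, with 73 higher, 211 lower and a median of -0.0901 points. Among members with a PSI of 2 to 98 in at least 1 condition the median was -0.172. Among the 581 annotated members 24 were higher and 40 lower, a less even split: the unannotated members past 10 points were 17 higher and 6 lower. The other row for exons under 2 genes, leaving out 4 nt exons and leaving out the Catspere2 copies, all chosen after seeing the data, left both counts within 1.5 times.

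In N2A the count of 3 ran from 0 to 4 with 1 sample left out, was 4 with limma on PSI (adding Mfsd6, adjusted p = 0.0494, and Snph, 0.0468, and losing Col4a1, 0.0621), and was 3 with 20 reads, with no PSI filter, with adjusted p alone and with the replicate block. The deviations of same-numbered samples correlated by 0.139, 0.0193 and 0.116, and siQk 2 correlated best with siNT 3 (0.0451), so the numbers are not shown to pair. Mfsd6 was also called without siQk 1 (adjusted p = 0.0371). No direction turned among the 8 N2A exons with the largest differences. Depth of the neuron values is unknown, and 55 of 273 members with reads could be tested.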
